A study of Mus musculus with 6 samples.

Results

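The proteasome genes described here are the 36 protein-coding genes, of 23122 genes in the count table, whose symbols run from Psma to Psmd followed by a number, leaving out Psmb8, Psmb9 and Psmb10. The rule uses symbols and no measured value. All were measured by bulk RNA sequencing of CT26 tumors, which come from a colorectal carcinoma line of BALB/c mice grown under the skin of female BALB/c mice aged 6 to 8 weeks. Mice were assigned at random to vehicle or TP-18 once tumors had reached 100 to 200 mm3, were dosed for 3 weeks, and gave 3 sequenced tumors in each group. TP-18, an antagonist of the prostaglandin E2 receptors EP2 and EP4, was given by mouth once a day at 50 mg/kg. No genotype is labelled for the hosts, and both groups carried tumors of the same line. Whether the tumors of a group came from different mice is not labelled, so p-values measure the spread between samples, which may be partly technical.

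The proteasome is the protease that breaks down proteins tagged with ubiquitin. Its 20S core is a barrel of alpha rings, which gate the entrance, and beta rings, which hold the cutting sites, and its 19S cap binds ubiquitin, removes it and unfolds the substrate with a ring of ATPases. Under interferon gamma the 3 catalytic beta subunits can be replaced during assembly by Psmb8, Psmb9 and Psmb10, which gives the immunoproteasome and changes which peptides reach MHC class I.

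By role, the 36 genes were 7 subunits of the alpha ring, 4 structural and 3 catalytic subunits of the beta ring, 6 ATPases of the cap's base, 3 other genes of the base, 8 subunits of the cap's lid, 3 assembly chaperones and 2 tissue variants. The chaperones Psmd5, Psmd9 and Psmd10 help to build the cap and are not part of the finished particle, so the name constitutive subunit does not hold for them. Nor does it hold for Psma8, the alpha subunit of the testis, and Psmb11, the catalytic subunit of the thymic cortex, which were nearly absent here. The 36 genes lie on 16 chromosomes. Of them, 35 passed the filter on low counts and were tested. Psmb11 did not pass, and Psma8 passed only through its TP-18 reads, so these 2 genes are described apart from the other 34.

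The libraries held 34813482 to 36489081 counts. The 36 genes took 0.415% to 0.422% of the counts in vehicle tumors and 0.417% to 0.439% in TP-18 tumors, ranges that overlapped. Levels below are CPM, counts scaled to library size, after scaling of libraries by edgeR's trimmed mean of M-values (TMM), whose factors were 0.918 to 1.00 in vehicle and 1.03 to 1.07 in TP-18 tumors. T cell markers were higher in TP-18 tumors, with 6 of 6 called and a summed level of 8.02 to 21.3 CPM in vehicle against 54.0 to 58.5 CPM in TP-18 tumors. Of 6 macrophage markers 2 were higher (1200 to 1638 against 1987 to 2662 CPM) and of 6 skeletal muscle markers 4 were higher (8.09 to 27.4 against 50.1 to 102 CPM), while 4 of 5 tested red blood cell markers were lower (66.3 to 395 against 14.8 to 33.9 CPM). Lyz2, at 648 to 1733 CPM, was the largest part of the macrophage sum in every tumor. Hbb-bs, the largest part of the red blood cell sum in every tumor, was not called (log2 change -3.31, adjusted p by edgeR 0.0649). Nor was Acta1, the largest part of the skeletal muscle sum in every TP-18 tumor (2.44, adjusted p by edgeR 0.0882). Of the macrophage markers not called, Csf1r, Cd68 and C1qa had positive changes and Mrc1 a log2 change of -0.64. None of the fibroblast, endothelial or adipocyte markers tested was called, by edgeR's adjusted p. Of 3 tested epithelial markers, 1 was lower (Krt20, 6838 to 12016 reads per tumor). The other epithelial markers, none of them called, went both ways. Epcam had 0, 0 and 2 reads in vehicle and 7, 8 and 24 in TP-18 tumors. Cdh1 had 37, 68 and 77 against 131, 137 and 195 reads. Krt8 had 10, 8 and 23 against 6, 7 and 6 reads. Krt18 had 300, 338 and 416 against 224, 274 and 156 reads. Krt19 had 4, 10 and 94 against 0, 9 and 2 reads. These shifts stand beside every result that follows, and their part in it was not tested. In bulk tissue, fewer cells of a type and less RNA per cell cannot be told apart.

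The transcripts of the 34 widely expressed genes were abundant and differed little between the groups, and none of the 34 passed the test for a difference between TP-18 and vehicle tumors. Their log2 changes, TP-18 minus vehicle, ran from -0.38 for Psmd4, a ubiquitin receptor of the cap, to 0.27 for Psma5, an alpha ring subunit. For 33 of the 34 the 95% confidence interval of the change lay within 1.5-fold in either direction, as it did for 51.7% of all tested genes. Intervals tend to narrow with more reads, and all tested genes were not matched to the 34 for abundance. The difference in share is thus not read as a trait of proteasome genes. The exception at 1.5-fold was Psmd4. The count of 33 was also 33 when libraries were scaled by their totals alone.

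Genes were tested by edgeR's quasi-likelihood method, and called at an adjusted p (Benjamini-Hochberg, over all 14189 tested genes) under 0.05. Of the 34, edgeR called 0 higher and 0 lower, where 7.09% and 5.26% of all tested genes were called. At an unadjusted p under 0.05, 1 was higher (Psma5) and 2 lower (Psmd4 and Psma6), against 15.3% and 14.6% of all genes. DESeq2 called 0 of the 34 higher and 1 lower, Psmd4, where it called 9.77% and 8.22% of its tested genes. Psma8 was also called higher by both. As it passed edgeR's filter only through its TP-18 reads and had few reads in all, nothing is read from either call. A missed threshold does not show that the groups were equal, and the intervals given for each gene say how large a difference remains possible.

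**Figure D1:**
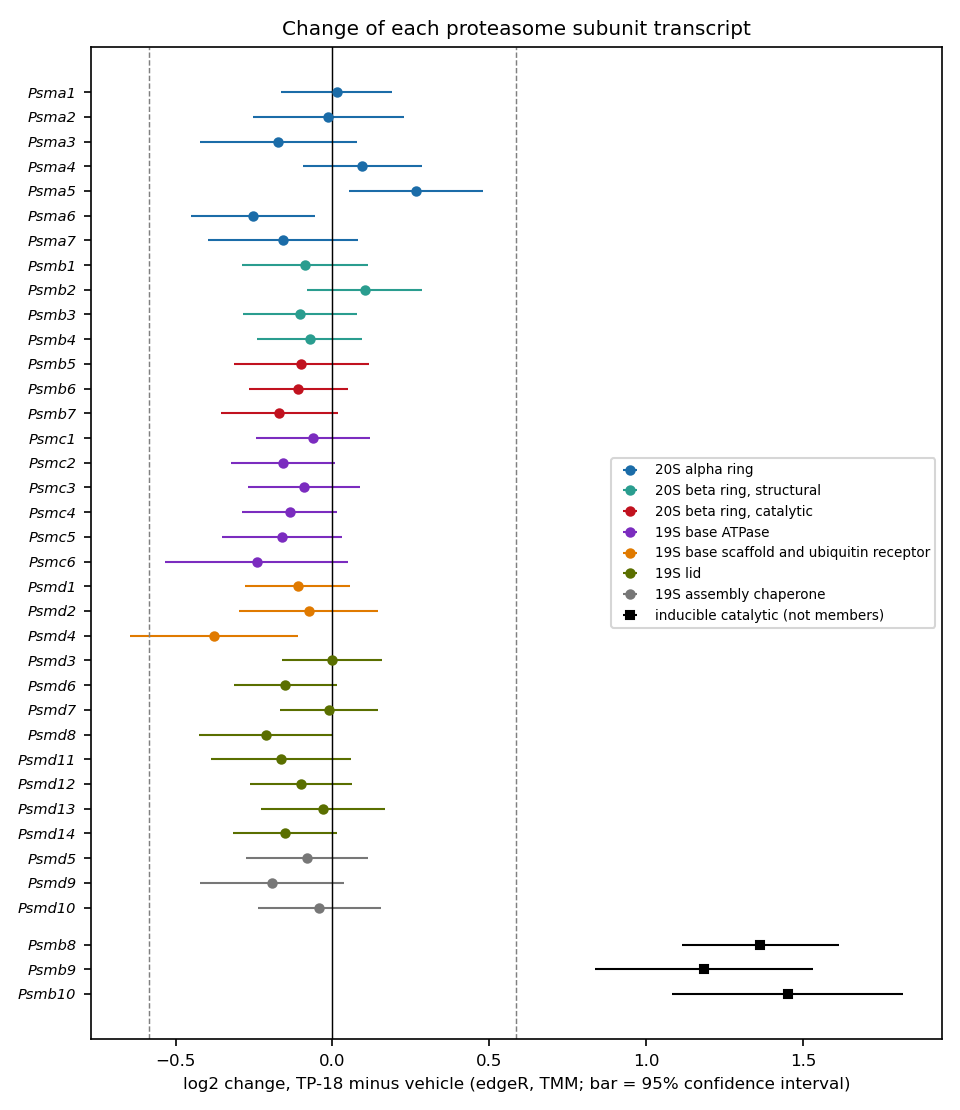
Log2 change in TP-18 against vehicle tumors for each of the 34 widely expressed proteasome genes, coloured by role, with the 3 inducible catalytic genes as black squares. Bars are 95% confidence intervals from edgeR and dashed lines mark 1.5-fold. All but Psmd4 of the 34 have intervals between the dashed lines, and the 3 inducible genes lie between 1.18 and 1.45.

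Levels per length were compared on the scale of the deposited FPKM, fragments per kilobase of gene and per unit of library size. The mean FPKM over the 6 tumors ran from 14.1 for Psmd9 to 197 for Psmb1, a range of 14-fold, with a median of 80.2. The lowest stood at percentile 81.4 of all genes, the median at 96.7 and the highest at 98.7. The chaperones Psmd9 and Psmd10 were lowest, at 14.1 and 24.6 FPKM, and the beta subunits Psmb1 and Psmb4 highest, at 197 and 182 FPKM. The length the authors divided by moves this order, since Psma3 had 36.9 FPKM with a length of 3325 bases and Psma2, a subunit of the same ring, 151 FPKM with 946 bases. Each of the 34 had 1125 to 9872 reads in every library. The within-group standard deviation of log2 CPM had a median of 0.09 over the 34 genes and 0.17 over all tested genes. All tested genes were not matched to the 34 for abundance here either, so this difference is not read as a trait of proteasome genes.

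The alpha ring closes the core and its subunits form the docking surface for the cap. Psma5 (chromosome 3, 108256926 to 108279952 in GRCm38) measured 89.6, 78.0 and 82.8 CPM in the vehicle tumors and 109, 91.1 and 100.8 CPM in the TP-18 tumors. Every TP-18 tumor was above every vehicle tumor, with the lowest TP-18 tumor close to the highest vehicle tumor. The log2 change was 0.27 ± 0.09 (SE), the 95% interval 0.05 to 0.48, and the adjusted p by edgeR 0.0983. With libraries scaled by their totals alone the change was 0.41 and the adjusted p 0.0434, while over the fits without 1 library that p ran from 0.0602 to 0.293. Psma5 shares 60 exon bases with the antisense gene 1700010K24Rik, and the counting is not stated to use strand. How many of its reads this affects is not known.

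Psma6 (chromosome 12, 55384222 to 55418459), another subunit of the alpha ring, measured 135, 147 and 163 CPM in vehicle and 126, 126 and 122 CPM in TP-18 tumors. The 3 TP-18 tumors lay close together and below all vehicle tumors, which were spread more widely. The log2 change was -0.25 ± 0.09 (SE) and the adjusted p by edgeR 0.0911. Over the fits without 1 library that p ran from 0.0424, without vehicle 1, to 0.25, without TP-18 3. The change was -0.11 and the adjusted p 0.367 with library totals alone. Psma5 and Psma6 thus had changes of opposite sign within one ring, and neither passed with all 6 tumors. The other 5 alpha subunits, Psma1, Psma2, Psma3, Psma4 and Psma7, ran from -0.17 to 0.10 and overlapped between groups. Over the 7 genes the median was -0.01, with 4 below 0 and 3 above, and with library totals alone 3 below and 4 above.

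The structural beta subunits carry no cutting site. Psmb2 measured 86.5, 77.0 and 74.6 CPM in vehicle and 86.5, 84.5 and 84.8 CPM in TP-18 tumors. Vehicle 1 lay just above the TP-18 tumors and the other vehicle tumors below them, so the groups overlapped (log2 change 0.10, 95% interval -0.08 to 0.29, adjusted p by edgeR 0.425). Psmb3 measured 87.2, 85.7 and 97.2 CPM against 81.5, 82.8 and 87.1 CPM, also overlapping (-0.10, 95% interval -0.28 to 0.08, adjusted p 0.415). Psmb1 and Psmb4, the most abundant of the 34 per length, had changes of -0.09 and -0.07. With library totals alone all 4 structural genes lay above 0, with a median of 0.06.

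The 3 catalytic subunits are the ones that interferon gamma can displace. Psmb5, which cuts after hydrophobic residues and is the main target of bortezomib, measured 62.5, 52.0 and 56.5 CPM in vehicle and 54.3, 49.6 and 55.7 CPM in TP-18 tumors. The groups overlapped, with a log2 change of -0.10 ± 0.09 (SE), a 95% interval of -0.31 to 0.12 and an adjusted p by edgeR of 0.512. Psmb6, which cuts after acidic residues, measured 99.1, 94.0 and 97.8 CPM against 89.3, 93.4 and 87.2 CPM. Its groups just missed each other, at 94.0 and 93.4 CPM (-0.11 ± 0.07 (SE), 95% interval -0.27 to 0.05, adjusted p 0.328). Psmb7, which cuts after basic residues, measured 143, 140 and 160 CPM against 132, 125.2 and 136 CPM. All TP-18 tumors were below all vehicle tumors, but the change of -0.17 ± 0.08 (SE) did not pass (95% interval -0.36 to 0.02, adjusted p 0.203). The 3 changes with library totals alone were 0.04, 0.03 and -0.02. Psmb7 shares 405 exon bases with Nek6 on the opposite strand and Psmb5 109 with the microRNA gene Mir686.

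Their inducible partners behaved differently in the same libraries, and are given here only as the counterpart of Psmb5, Psmb6 and Psmb7. Psmb8, which takes the place of Psmb5, measured 94.0, 81.3 and 86.4 CPM in vehicle and 233, 247 and 194 CPM in TP-18 tumors. Psmb9, which takes the place of Psmb6, measured 61.5, 51.9 and 65.4 against 140, 158 and 109 CPM. Psmb10, which takes the place of Psmb7, measured 50.9, 36.0 and 34.9 against 119, 115 and 98.5 CPM. Every TP-18 tumor was above every vehicle tumor for all 3 genes. The log2 changes were 1.36, 1.18 and 1.45, with adjusted p-values by edgeR of 0.00142, 0.0053 and 0.00327, and all 3 passed in each of the 6 fits without 1 library. Psmb8 and Psmb9 share 186 and 212 exon bases with the opposite-strand genes Gm20496 and Tap1.

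The ratio of an inducible to a constitutive subunit within a tumor needs no scaling between libraries. On FPKM the ratio of Psmb8 to Psmb5 was 1.07, 1.11 and 1.09 in vehicle tumors and 3.06, 3.54 and 2.48 in TP-18 tumors. On this scale the 2 transcripts were thus near equal in every vehicle tumor, while Psmb8 was in excess in every TP-18 tumor. The near equality rests on the lengths the authors divided by, 1223 bases for Psmb8 and 871 for Psmb5. By reads Psmb8 was above Psmb5 in the vehicle tumors too, at 3304, 2655 and 2765 against 2195, 1699 and 1810. The ratio of Psmb9 to Psmb6 was 0.628, 0.558 and 0.677 in vehicle and 1.59, 1.71 and 1.26 in TP-18 tumors, so the more abundant of the pair changed from Psmb6 to Psmb9. The ratio of Psmb10 to Psmb7 was 0.296, 0.214 and 0.181 against 0.752, 0.763 and 0.603, and Psmb7 was the more abundant in all 6 tumors. The ratios differed by 2.74-fold, 2.43-fold and 3.11-fold between groups, and none of the 3 overlapped. The two-sided exact permutation p was 0.1 for each, the smallest that 3 against 3 tumors can give. A transcript ratio over the whole tumor does not give the make-up of assembled proteasomes in any cell type.

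**Figure D2:**
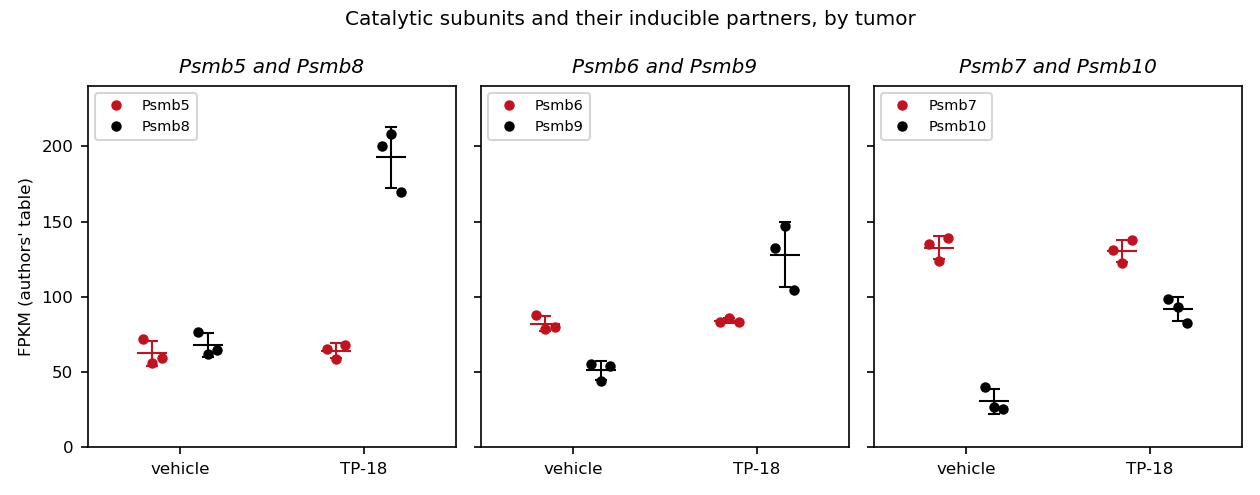
FPKM of each constitutive catalytic subunit (red) and its inducible partner (black) in the 3 vehicle and 3 TP-18 tumors; points are tumors, and dashes with bars are the mean and SD. Psmb5, Psmb6 and Psmb7 overlap between the groups while Psmb8, Psmb9 and Psmb10 are higher in every TP-18 tumor.

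The promoters of the first 2 pairs are shown as examples of genes that encode interchangeable subunits but had unlike changes. Psmb7 and Psmb10, whose changes were also unlike, are not shown. Each is the 250 bases before the annotated start, 5′ to 3′ on the gene's strand, from RefSeq on GRCm38.p6. They lie at chr14:54617996-54618245 on the minus strand for Psmb5, chr17:34197945-34198194 on the plus strand for Psmb8, chr11:70525107-70525356 on the plus strand for Psmb6 and chr17:34187331-34187580 on the minus strand for Psmb9. Capitals mark matches to TGACNNNGC, the core of the antioxidant response element that NRF1 and NRF2 bind, or to TTCNNNGAA, the core of the interferon gamma activated site. Matches to the other motifs searched, which are given below, are not marked.
Psmb5: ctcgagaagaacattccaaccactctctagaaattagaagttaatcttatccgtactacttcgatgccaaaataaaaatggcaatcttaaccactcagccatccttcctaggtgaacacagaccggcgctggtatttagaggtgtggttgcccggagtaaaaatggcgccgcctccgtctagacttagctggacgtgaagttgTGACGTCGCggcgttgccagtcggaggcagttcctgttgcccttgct
Psmb8: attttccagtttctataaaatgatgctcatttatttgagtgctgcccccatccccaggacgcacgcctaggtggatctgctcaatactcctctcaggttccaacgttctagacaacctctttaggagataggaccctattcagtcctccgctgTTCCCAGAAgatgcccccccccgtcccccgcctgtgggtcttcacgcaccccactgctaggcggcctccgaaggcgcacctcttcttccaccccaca
Psmb6: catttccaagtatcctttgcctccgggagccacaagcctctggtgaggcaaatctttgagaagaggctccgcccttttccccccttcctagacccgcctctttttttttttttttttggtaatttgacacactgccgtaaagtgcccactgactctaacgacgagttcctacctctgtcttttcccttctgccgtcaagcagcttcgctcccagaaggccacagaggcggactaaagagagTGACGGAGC
Psmb9: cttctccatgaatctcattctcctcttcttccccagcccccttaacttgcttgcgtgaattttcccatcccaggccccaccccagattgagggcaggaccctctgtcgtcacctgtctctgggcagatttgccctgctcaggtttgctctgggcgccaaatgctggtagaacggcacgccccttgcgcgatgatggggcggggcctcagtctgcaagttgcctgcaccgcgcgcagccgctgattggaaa
Psmb5 and Psmb6 each held 1 match to TGACNNNGC and none to TTCNNNGAA, Psmb8 held 1 match to TTCNNNGAA and none to TGACNNNGC, and Psmb9 held neither. No match to either motif was listed for Psmb7 or Psmb10, whose promoters may not have been among those searched. The 2 pairs shown thus do not stand for all 3. For Psmb6 the start used lies inside the gene's outermost annotated span, which begins at 70525324, so that its match falls within that span.

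Promoters were found for 29 of the 36 genes, and each motif was searched on both strands. A gene was counted if any of its promoters held a match. TGACNNNGC occurred in 5 of the 29 (Psmb5, Psmb6, Psmc6, Psmd9 and Psmd12), 17.2%, against 11.5% of all 27025 genes with a promoter. TTCNNNGAA, which reads the same on both strands, occurred in 0 of the 29 against 8.13% of all. GAAA followed by any 2 bases and GAAA, the core of the interferon-stimulated response element, occurred in 3 (Psmb3, Psmd4 and Psmd9), 10.3% against 3.46%. The shown promoters of the inducible genes Psmb8 and Psmb9 held 0 matches to it, as did those of Psmb5 and Psmb6. The CCAAT box, bound by NF-Y, occurred in 12, 41.4% against 37.5%, and CCGGAAG, an ETS factor core, in 9, 31.0% against 7.83%. Among the promoters shown, that of Psmb9 held 1 CCAAT box and the others 0, and all held 0 matches to CCGGAAG. All genes were not matched to the 29 for base composition or abundance, so no difference in share is read as a trait of proteasome genes. A match describes letters in this window and is not a binding site, and no match says nothing about the factor.

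The 6 ATPases of the base unfold the substrate. Psmc2 measured 106, 98.4 and 96.2 CPM in vehicle and 90.1, 87.0 and 92.3 CPM in TP-18 tumors (log2 change -0.16 ± 0.07 (SE), 95% interval -0.32 to 0.01, adjusted p by edgeR 0.188). Psmc4 measured 121, 119 and 122 CPM against 112, 107 and 110 CPM (-0.14 ± 0.07 (SE), 95% interval -0.29 to 0.02, adjusted p 0.208). Both were lower in every TP-18 tumor on this scale, by a small margin, and neither passed. With library totals alone the changes were -0.02 and 0.0061. All 6 ATPases had changes below 0, from -0.24 to -0.06 with a median of -0.15, but with library totals alone 3 of the 6 were. Psmc6, which was chosen after its values were seen, measured 135, 160 and 193 CPM in the vehicle tumors and 131, 139 and 143 CPM in TP-18 tumors, so its vehicle tumors differed from each other more than its groups did.

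The other genes of the base are the scaffolds Psmd1 and Psmd2, to which ubiquitin receptors and shuttles bind, and Psmd4, which binds ubiquitin chains itself. Psmd4 (chromosome 3, 95032688 to 95042614) measured 139, 171 and 184 CPM in vehicle and 128, 136 and 116 CPM in TP-18 tumors. All 3 TP-18 tumors were below the vehicle tumors, of which vehicle 1 stood nearest to them. The log2 change was -0.38 ± 0.12 (SE), the 95% interval -0.65 to -0.11, and the adjusted p by edgeR 0.0708. It was 0.0317 without a filter on low counts and 0.0274 by DESeq2, and over fits without 1 library it ran from 0.0165, without vehicle 1, to 0.223. With library totals alone the change was -0.23 and the adjusted p 0.151. Psmd1 measured 207, 231 and 216 CPM against 203, 203 and 201 CPM, again without overlap (-0.11, 95% interval -0.28 to 0.06, adjusted p 0.348), and had a change of 0.03 with library totals alone. Psmd1 shares 301 exon bases with Gm21972 on the same strand.

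The lid carries the enzyme that removes ubiquitin. Psmd8 measured 170, 207 and 203 CPM in vehicle and 164, 174 and 162 CPM in TP-18 tumors, which overlapped through vehicle 1 (log2 change -0.21, 95% interval -0.43 to 0.00, adjusted p by edgeR 0.170). Psmd6 measured 75.1, 78.4 and 77.1 CPM against 69.2, 66.4 and 72.2 CPM, with no overlap (-0.15, 95% interval -0.31 to 0.01, adjusted p 0.198). Psmd14, the deubiquitinase itself and chosen after its values were seen, had a change of -0.15 with an adjusted p of 0.201. All 8 lid genes lay below 0, with a median of -0.13, and Psmd3 and Psmd7, at -0.0013 and -0.01, lay nearest to it, whereas with library totals alone 4 of the 8 were below 0. Of the assembly chaperones, Psmd9 measured 42.2, 38.4 and 36.2 CPM against 35.5, 30.8 and 35.9 CPM, where the highest TP-18 tumor came just under the lowest vehicle tumor (-0.19, 95% interval -0.42 to 0.04, adjusted p 0.233). Psmd5 measured 102, 115 and 110 CPM against 96.4, 111 and 102 CPM and overlapped (-0.08, 95% interval -0.27 to 0.11, adjusted p 0.557).

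**Figure D3:**
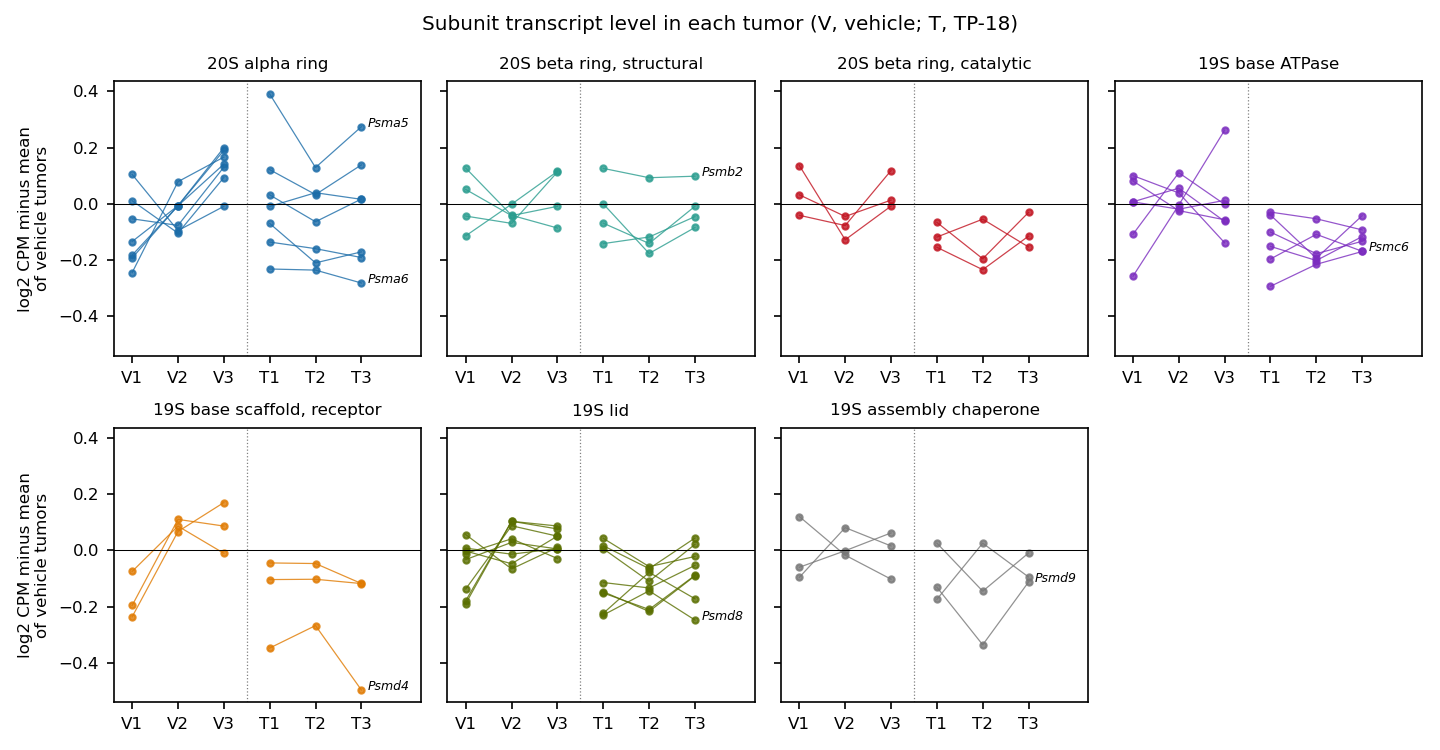
Level of each of the 34 genes in each tumor, as log2 CPM minus the mean of its 3 vehicle tumors, by role; V1 to V3 are vehicle and T1 to T3 TP-18 tumors, and lines only join the points of one gene within a group. Most genes keep near 0 in every tumor, Psma5 lies above its vehicle tumors and Psmd4 below, and Psmc6 spreads most among the vehicle tumors.

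The sign of these small changes depended on how libraries were scaled. With TMM, 30 of the 34 changes were below 0 and 4 above, where 51.1% of all tested genes were below 0, and the median was -0.10 against -0.01 over all tested genes. With library totals alone 13 were below 0 and 21 above, with a median of 0.04 against 0.13 over all genes, since the change of scaling moved the median of all genes by 0.14. The median of the 34 was below that of all genes under both, and by about the same amount, -0.09. A change of scaling moves all genes nearly alike, so this likeness was fixed in advance and is no support for the gap. Groups did not overlap for 10 genes that were lower, 29.4% of the 34, and for 1 that was higher, 2.94%, where 17.8% and 18% of all tested genes did the same. With library totals 1 gene was lower without overlap, Psma6, and 4 were higher, Psma1, Psma4, Psma5 and Psmb2, against 7.67% and 27.9% of all genes. Psma5 and Psma6 were thus the genes whose groups did not overlap, in the same direction, on both scales.

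**Figure D4:**
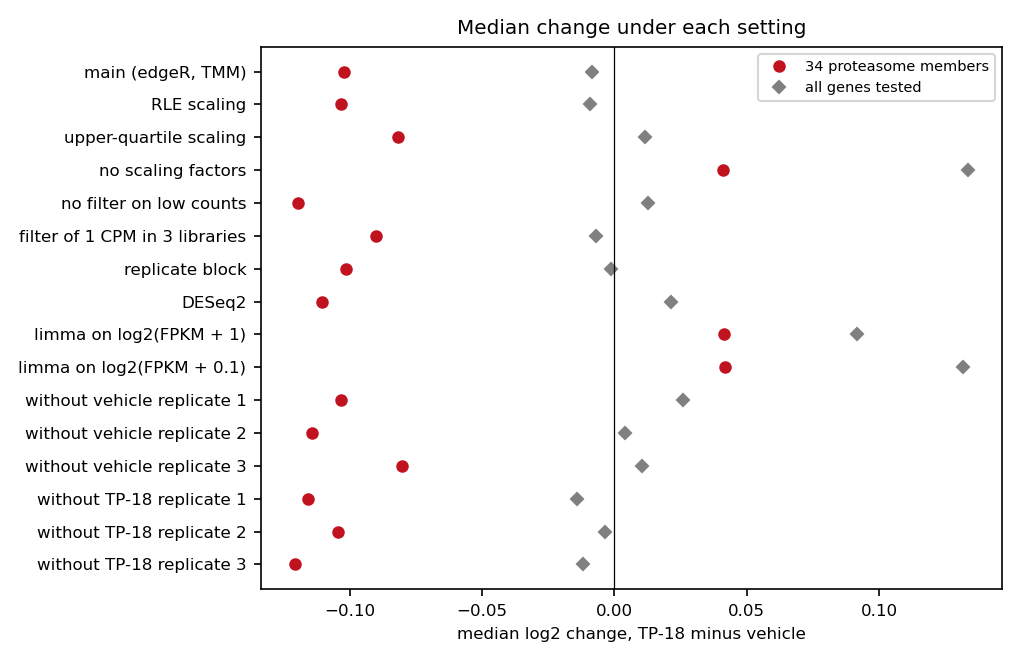
Median log2 change, TP-18 minus vehicle, of the 34 proteasome genes (red circles) and of all genes tested (grey diamonds) under each setting. The proteasome median lies below that of all genes in every setting shown, and is above 0 with library totals alone (no scaling factors) and on the FPKM scale. Settings that differ only in scaling move both medians nearly alike, so they are no separate check of the gap.

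A comparison of each gene with the mean of the other 33 in the same tumor removes the scaling between libraries. On this log2 FPKM scale Psma5 stood at -0.03, -0.29 and -0.25 in vehicle and 0.30, 0.07 and 0.18 in TP-18 tumors, a difference of 0.37. Relative to the other subunit transcripts it was thus higher throughout the TP-18 group, without overlap. Psmb2 differed by 0.21, Psma4 by 0.20 and Psma1 by 0.11 without overlap, and Psma6 by -0.16. Psmd3 and Psmd7 differed by 0.10 and 0.08. These were 6 higher, 17.6% of the 34, and 1 lower, 2.94%, where 24.2% and 10.2% of all tested genes did not overlap when set against the same mean. For these 7 genes the two-sided exact permutation p was 0.1, the smallest possible with 3 against 3, before any adjustment over the 34. Psmd4, which had the most negative change in CPM, differed by -0.28 but overlapped on this scale (exact p = 0.2). Psma4 and Psmd3 share 114 and 17 exon bases with the opposite-strand genes AY074887 and Gm12356. Of all the proteasome genes described, 8 share exon bases with another gene.

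Vehicle tumors also differed among themselves. Vehicle 3 was above vehicle 1 by more than 0.25 on the log2 CPM scale for 9 of the 34 genes, foremost Psmc6 at 0.52, and below it by more than 0.2 for Psmc5, Psmd9 and Psmb2. The highest vehicle tumor was vehicle 1 for 10 genes, vehicle 2 for 10 and vehicle 3 for 14. Without vehicle 1, edgeR called 4 of the 34 lower, namely Psma3, Psma6, Psmd4 and Psmd8, where 6.99% of all tested genes were lower, whereas without any other single library it called 0 of the 34 and 0.766% to 2.98% of all tested genes lower. These 4 genes were each lowest in vehicle 1 among the vehicle tumors.

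The tissue variants had few reads. Psma8, which replaces the alpha subunit Psma7 in developing sperm cells, was counted 1, 3 and 0 times in vehicle and 11, 11 and 21 times in TP-18 tumors. These are 0.0285, 0.0919 and 0 CPM against 0.296, 0.301 and 0.538 CPM, so the groups did not overlap, at levels far below those of Psma7 (204 to 269 CPM). Since the filter admitted the gene through the group where it was higher, no fold change or p is given. The call by edgeR was lost in each of the 6 fits without 1 library, and the gene was not tested with a filter of 1 CPM. Of the testis markers, 4 were in the table and none was tested. Their summed level was 0.142 to 0.245 CPM in vehicle and 0.188 to 0.712 CPM in TP-18 tumors, ranges that overlapped. By gene the reads were 0, 6 and 1 against 1, 1 and 1 for Sycp3, 3, 2 and 3 against 5, 16 and 6 for Ddx4, 0, 0 and 1 against 1, 4 and 4 for Prm1, and 2, 0 and 0 against 0, 5 and 1 for Dazl. Psmb11 had 0, 1 and 0 reads in vehicle and 0, 0 and 4 in TP-18 tumors, so a difference was not detectable at this depth. It spans 54625310 to 54629556 on chromosome 14, where Psmb5 spans 54614120 to 54617995.

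Related genes were taken as a whole list of 46 assembly factors, other caps, further cap subunits, ubiquitin genes and regulators, all of which were tested. By edgeR, 2 of the 46 were higher and 8 lower, where 7.09% and 5.26% of all tested genes were. Psme1 and Psme2, the subunits of the interferon-inducible 11S cap, rose by 0.56 ± 0.09 and 0.63 ± 0.09 (SE), with adjusted p-values of 0.00821 and 0.00693, and passed whichever library was left out. Psme1 measured 138, 124 and 133 CPM in vehicle and 201, 206 and 177 CPM in TP-18 tumors, and Psme2 89.3, 79.5 and 94.9 against 138, 143 and 127 CPM. The retrocopy Psme2b, chosen after its values were seen, had a change of 0.67, and because reads can be shared between near-identical copies the split between it and Psme2 is uncertain. Among the genes that fell were the assembly chaperone Psmg2 (-0.36), the nuclear import factor Akirin2 (-0.45), the small lid subunit Sem1 (-0.34), the ubiquitin gene Ubb (-0.37), the p97 cofactor Ufd1 (-0.31) and the small Maf proteins Maff (-0.75) and Mafk (-0.30). Each of the 8 lost its call in at least 4 of the 6 fits without 1 library, and Psmg2, Akirin2, Sem1, Ubb, Ufd1 and Mafk lost it with library totals alone. Over the 46 genes 33 changes were below 0 and the median was -0.16, against 24 below 0 and -0.01 with library totals alone.

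Nfe2l1 encodes NRF1, the factor that raises proteasome subunit transcripts when the proteasome is inhibited. It measured 336, 356 and 326 CPM in vehicle and 227, 296 and 259 CPM in TP-18 tumors. All TP-18 tumors were below all vehicle tumors, with a log2 change of -0.38 ± 0.11 (SE) and an adjusted p by edgeR of 0.0527. That p was 0.0106 by DESeq2 and 0.0242 without a filter on low counts. Over the fits without 1 library it ran from 0.0427, without TP-18 2, to 0.157, without vehicle 2, and 1 of the 6 passed. The change was -0.24 and the adjusted p 0.169 with library totals alone. By limma on FPKM, which are scaled by library totals too, the adjusted p was 0.183 and 0.180 with pseudocounts of 1 and 0.1. Nfe2l2, which encodes NRF2, a related factor of the oxidative stress response, measured 197, 170 and 182 CPM against 196, 178 and 210 CPM and overlapped (0.09, 95% interval -0.13 to 0.30, adjusted p 0.569).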

How the data were processed

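Total RNA of 6 CT26 tumors was extracted with TRIzol and made into libraries with the VAHTS Universal V6 kit, per the labels' protocols. The submitters' processing notes name fastp, HISAT2, HTSeq and GRCm38. Their versions and settings, strandedness and the treatment of multi-mapping reads were not given in the sources used here. Read counts were deposited by the authors as whole numbers per gene, without normalization, beside a table of FPKM. In 12216 of 12216 genes checked, the deposited FPKM equals the count over library total and 1 gene length.

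Counts were filtered with filterByExpr (minimum count 10, minimum total 15), scaled by TMM and tested with the robust quasi-likelihood F test of edgeR 4.0.16 in R 4.3.3, with the group as the only term and all 6 tumors. Values are two-sided and adjusted by Benjamini-Hochberg over 14189 genes. Standard errors were derived from the F statistic and intervals from the moderated fit. Fold changes used a prior count of 0.125. Ratios of FPKM had no pseudocount and were tested by exact permutation in scipy 1.17.1. The procedure was tested on simulated data. Intervals cover the spread between samples and say nothing of PCR copies.

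The rule for the proteasome genes uses symbols only, but this group of genes, like all lists, was chosen with earlier results of these data known. Values per tumor are given for genes past the threshold, the catalytic subunits, the 2 smallest p-values in each subcomplex and genes removed by the filter, and for the inducible partners; of the related list, the called genes (up to 12), Nfe2l1 and Nfe2l2 are named. Of these called genes, 1 is not reported here by name. Genes named beyond this rule were picked with their values known, and are marked so in the text unless they make up a small count. Alternatives were RLE and upper-quartile scaling, library totals alone, no filter, a filter of 1 CPM in 3 libraries, the replicate number as a block, DESeq2 1.42.0, limma 3.58.1 (trend) on log2 FPKM with pseudocounts of 1 and 0.1 after a filter of 0.1 FPKM in 3 libraries, an adjusted p under 0.10, and each library left out. Exon overlaps came from GENCODE vM21 and promoters from RefSeq on GRCm38.p6.

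Marker lists covered T cells, macrophages, red blood cells, skeletal muscle, fibroblasts, endothelium, adipocytes, epithelium, testis and thymic cortex, of which the last had 1 of 5 tested genes called higher, Cd83.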

Additional observations from a re-analysis of the deposited data

How the results depend on the processing

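The 3 catalytic ratios kept their direction in every setting run, with log2 differences without 1 library of 1.34 to 1.59 for Psmb8 to Psmb5, 1.19 to 1.41 for Psmb9 to Psmb6 and 1.48 to 1.83 for Psmb10 to Psmb7. Over 31 named genes, 18 of 495 alternative values had the opposite sign, none of them called, 77 lost a call and 13 gained one. The 18 came from 6 genes with small negative changes in TMM-scaled counts. FPKM are scaled by library totals too, so the limma fits are no separate check of the sign beside the fit on library totals. With library totals alone, limma with a pseudocount of 1 and limma with a pseudocount of 0.1, in this order, the changes were 0.0409, 0.0451 and 0.0458 for Psmb5, 0.033, 0.034 and 0.0343 for Psmb6, 0.0416, 0.0411 and 0.0414 for Psmb3, 0.0061, 0.0061 and 0.0061 for Psmc4, 0.0342, 0.0342 and 0.0347 for Psmd1 and 0.0634, 0.0606 and 0.0617 for Psmd5. The median of the tested proteasome genes, -0.10, was 0.041 with library totals alone, and 0.0416 and 0.0424 by limma on FPKM with pseudocounts of 1 and 0.1, and -0.12 to -0.08 without 1 library. Proteasome genes called higher numbered 1, Psma8, and 2 with library totals, 0 with a filter of 1 CPM, which removes Psma8, 0 by limma with a pseudocount of 1, and 2 at an adjusted p under 0.10. Those called lower numbered 0, and 1 with no filter, 1 by DESeq2 and 2 at an adjusted p under 0.10. Without 1 library, 0 to 0 were higher and 0 to 4 lower, the 4 without vehicle 1. Among related genes 10 were called, and 5 with library totals, 17 by DESeq2, 5 by limma with either pseudocount, 19 at an adjusted p under 0.10 and 2 to 13 without 1 library. Over all genes, 1006 higher and 747 lower became 1593 and 268 with library totals, while 1235 were lower by DESeq2 and 238 and 250 by limma with pseudocounts of 1 and 0.1. An adjusted p under 0.10 gave 1609 and 1413, and fits without 1 library 388 to 1216 and 111 to 1023. Apart from the looser threshold, the cause of these differences was not tested. Depth limits Psma8 and Psmb11 only: the other 34 had at least 1125 reads in each library.

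The labels state no pairing by replicate number, so no pairing was used. Same-numbered tumors deviated from their group means with correlations of 0.24, -0.08 and -0.04, and differently numbered tumors with -0.28 to 0.31. With 3 tumors in a group the deviations depend on each other, so these correlations cannot show or exclude a pairing. With the replicate number as a block, 547 genes were higher and 231 lower, 0 proteasome genes were called higher and 0 lower, and 3 related genes were called.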
